A study of Homo sapiens with 6 samples.

Results

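The 36 genes described here encode the BCL2 family, caspases with their activation platform, and the inhibitor of apoptosis proteins (IAPs) with their antagonists. They were taken by gene symbol from a list of apoptosis roles, and all 36 are among the 26364 symbols counted. After a filter on low counts 34 were tested. The other 2, BCL2L10 and CASP10, had 1 to 5 and 4 to 14 counts per library and are given as values only.

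BCL2 family proteins set the threshold of mitochondrial apoptosis. Pro-survival members hold the pore-forming effectors BAX and BAK1 in check, and BH3-only proteins, which are induced or modified by stress signals, bind the pro-survival members or activate the effectors directly. Once the outer mitochondrial membrane is open, cytochrome c assembles APAF1 and caspase-9 into the apoptosome, which activates the executioner caspases, while IAPs bind caspases or ubiquitinate signalling proteins and are themselves displaced by DIABLO and HTRA2. Breast cancer cells are known to lean on MCL1 and on BCL-XL, the long product of BCL2L1.

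Polyadenylated RNA was sequenced from ZR-75-30, an established human breast adenocarcinoma line with amplified ERBB2. The cells were infected with a control lentivirus (pLVX) or with a lentivirus carrying the kinase gene CDK12 (pLVX-CDK12), and each group had 3 libraries that the labels call biological replicates. Separate infections, selection after infection and clonality are not described in the labels, so p-values measure the spread between these libraries only. The title of the series asks for the targets of CDK12, and the question here is how the genes of the death machinery differed between the groups.

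Libraries held 21178163 to 26543653 counts. A count of 3, the limit that a count of 0 allows, was worth 0.112 to 0.144 CPM (counts scaled to library size, with TMM factors), and this limit covers counting error only. The CDK12 transcript itself lay between 72.8 and 81.8 CPM in controls and between 2009 and 2240 CPM after its transfer, so every library matched its label. All 9 luminal epithelial markers were detected in every library, with a summed level of 14107 to 14762 CPM in controls and 12441 to 12988 CPM with CDK12. The amplified gene ERBB2 was the largest part of this sum, with means of 8656 and 7357 CPM. By the test described below 4 of the 9 were lower, KRT8, KRT18, ERBB2 and GATA3, and 0 higher. Over all genes tested 18.9% were lower and 16.2% higher. Markers of other cell types were scarce: 5 leukocyte markers summed to 3.69 to 4.08 CPM in controls and 1.69 to 1.97 CPM with CDK12, and 4 endothelial markers to 2.45 to 3.29 and 1.56 to 2.17 CPM. The 6 fibroblast markers summed to 46.6 to 51.4 and 60.3 to 71.2 CPM, nearly all of it COL1A1, with the other 5 under 1 CPM. The part of these markers in the results was not tested. Of 20 interferon-stimulated genes all 20 were lower with CDK12, beside 18.9% of all genes tested. Control replicate 1 stood apart with a summed level of 1272 CPM for these 20, against 834 and 788 CPM in control replicates 2 and 3. The libraries with CDK12 had 322 to 334 CPM.

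Of the 34 members tested, 12 passed the test, of which 5 had risen and 7 had fallen with CDK12. That is 35.3% of the members, beside 35.1% of all 14665 genes tested (edgeR, quasi-likelihood F; p below 0.05 after Benjamini-Hochberg adjustment across the whole table), so the members were called at the rate of the background. The 5 rises were CASP9, PMAIP1, BCL2L11, BMF and BCL2L13. The 7 falls were BIRC5, BCL2L1, BID, BCL2L12, CASP6, BBC3 and BIRC3. By direction, 16.2% of all genes were higher and 18.9% lower. The balance of directions among all genes depended on the scaling, with 46.1% of calls higher by TMM, 59.6% by upper-quartile factors and 61.7% by total counts. Among members it moved little, with 5 higher and 6 lower, and 6 and 6, under the latter scalings.

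Changes among the members were small. The median log2 fold change was -0.02, beside 0.0035 over all genes tested, and it was 0.01 with upper-quartile factors and 0.02 with total counts, so its sign was set by the scaling. Of the 12 called members 1, CASP9, exceeded 1.5-fold, beside 18.3% of all called genes. In 11 of the 34 members (32.4%) the libraries of the groups did not overlap, beside 45.6% of all genes tested. Replicates were tight, with a median coefficient of variation of 4.76% in controls and 4.84% with CDK12. In these bulk libraries, fewer cells carrying a transcript and less transcript per cell cannot be told apart.

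**Figure D1:**
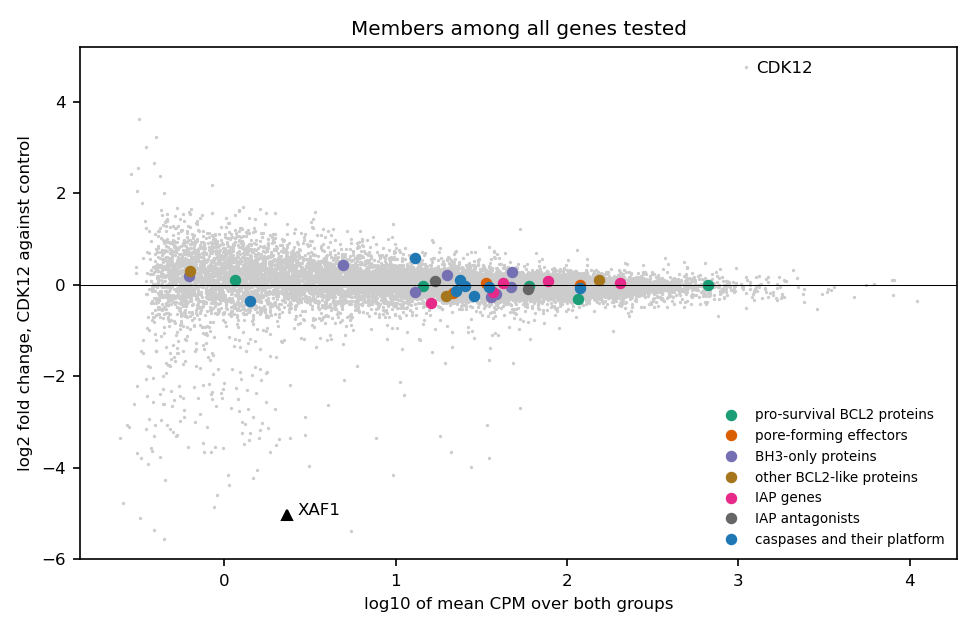
Log2 fold change of CDK12 against control libraries (vertical axis) by log10 of the mean CPM over both groups (horizontal axis). Grey points are the 14665 genes tested, coloured points the 34 tested members by role, and the triangle XAF1, which is no member; the members lie between -0.40 and 0.59, within the body of all genes, while XAF1 lies at -5.04, a fitted value that depends on the prior count.

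Over all genes tested 35.1% were called, 16.2% higher and 18.9% lower, and the counts per role are set beside these shares. Of 8 BH3-only genes 5 were called, 3 higher and 2 lower. Among the pro-survival genes 1 of 5 tested was called, lower, and 0 of 3 pore-forming effectors passed. Of 5 IAP genes 2 were lower, and 0 of 2 IAP antagonists passed. The caspases with APAF1 and CFLAR had 1 higher and 1 lower among 8 tested. Median log2 fold changes were 0.06 for BH3-only genes, -0.03 for pro-survival genes, 0.04 for IAP genes and -0.06 for the caspase group. Differences between roles were not tested, and each role holds few genes.

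**Figure D2:**
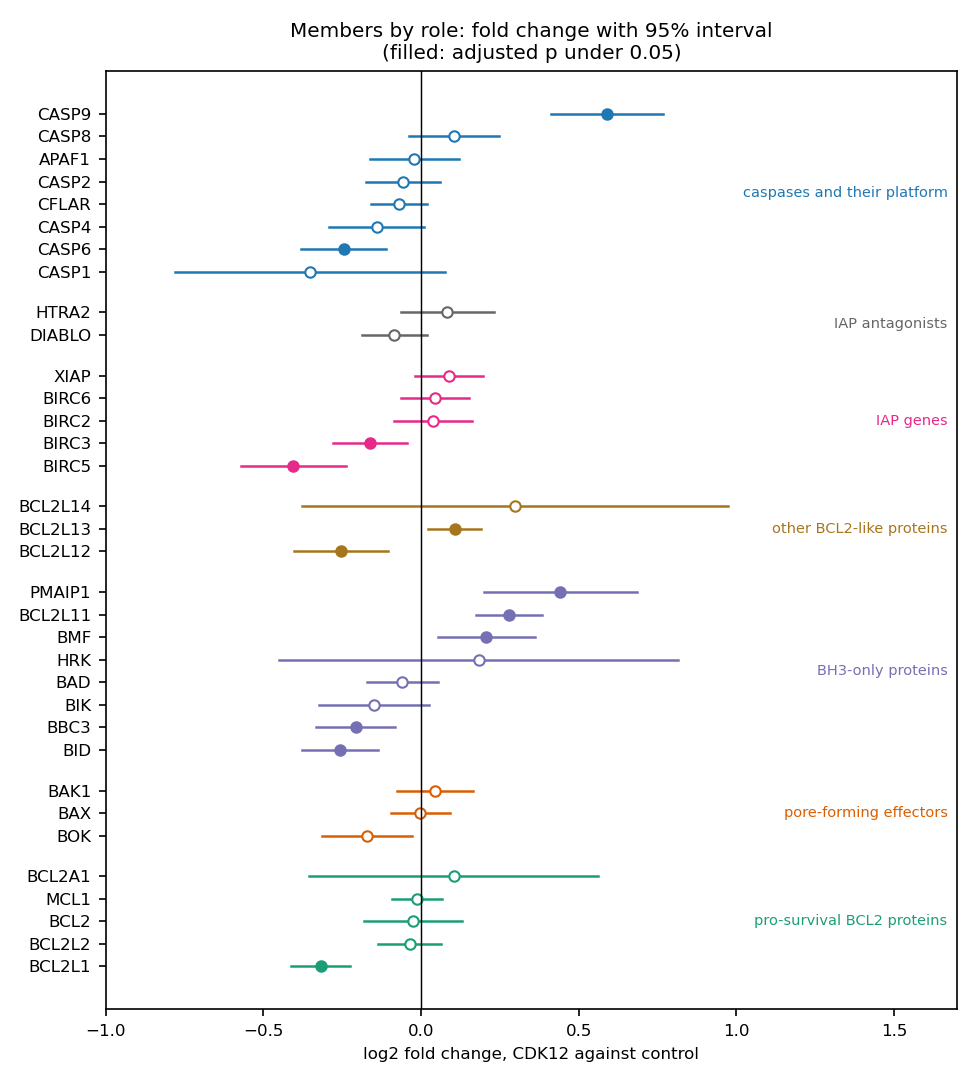
Log2 fold change of each of the 34 tested members (points, horizontal axis) with its 95% interval (bars), ordered by role; filled points passed the adjusted threshold of 0.05. BH3-only genes are filled on both sides of 0, while BAX, BAK1 and MCL1 have narrow intervals around 0.

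Levels of different genes were compared per kilobase of merged exons, with lengths from GENCODE 29. MCL1, the short-lived pro-survival protein, was the most abundant member on this scale, at 164 CPM per kilobase in controls and 162.5 with CDK12. It made up 71.9% ± 0.92 (SD, n = 3) of the summed per-kilobase level of the pro-survival genes in controls and 74.7% ± 0.93 with CDK12. BCL2L1 made up 19.8% ± 0.78 and 16.6% ± 0.76 in the same order. BCL2, the founding member of the family, was at 1.24 and 1.21 CPM per kilobase, so that it held 0.542% and 0.557% of the sum. Among effectors, BAX was at 84.4 and 84.3 CPM per kilobase and BAK1 at 15.03 and 15.5. BAD led the BH3-only genes with 36.02 and 34.6 CPM per kilobase, and CASP6 led the caspase group with 17.6 and 14.8. Before division by length CFLAR was above CASP6, at 123 and 117 CPM against 31.3 and 26.4. Its merged exons are 20.64 kilobases long, those of CASP6 1.778. Ranks and shares thus depend on these lengths, and the annotation used for counting is not given. The summed pro-survival level was 227 to 229 CPM per kilobase in the control libraries and 217 to 218 in the CDK12 libraries. Within it BCL2L1 went from 45.06 to 36.16 CPM per kilobase. The sum of the BH3-only genes was 94.6 to 101 and 87.5 to 95.2 CPM per kilobase, so its libraries overlapped. Mean sums in controls and with CDK12 were 228 and 217 for pro-survival genes and 97.1 and 92.2 for BH3-only genes. For effectors they were 108 and 107, and for the caspase group 54.4 and 51.4. The sums used TMM factors of 0.985 to 0.986 in controls and 1.014 to 1.016 with CDK12. Other scalings were not applied to them.

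**Figure D3:**
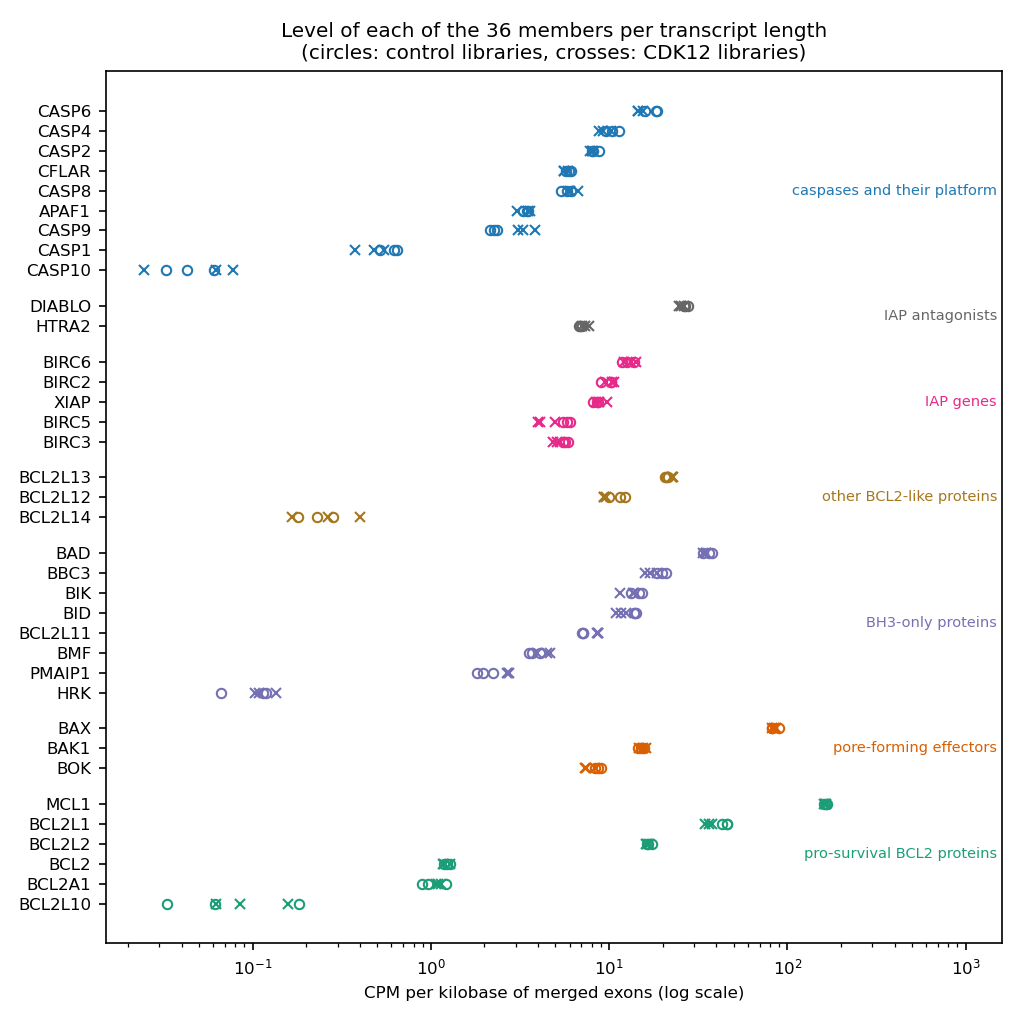
Level of each of the 36 members in CPM per kilobase of merged exons (horizontal axis, log scale), with 1 circle per control library and 1 cross per CDK12 library. MCL1 and BAX stand highest, BCL2L10, CASP10 and HRK lowest, and circles and crosses lie close together for most genes.

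BCL2L1 was the pro-survival gene that fell. Its level was 132, 123 and 131 CPM in control replicates 1, 2 and 3, and 104, 98.3 and 108 CPM in CDK12 replicates 1, 2 and 3. Every CDK12 library lay below every control library. The fall was 1.25-fold (log2 fold change -0.32, SE 0.05; edgeR adjusted p = 4.08e-06). Counts per gene do not part the long, pro-survival transcript of BCL2L1 from the short transcript, whose product promotes death. The antisense gene ABALON covers 42.8% of the merged exons of BCL2L1 and the strand setting of the counting is not given in the sources used here. ABALON itself fell, from 2.84 ± 0.38 to 2.03 ± 0.28 CPM, both far below the CPM of BCL2L1 (edgeR adjusted p = 0.0256).

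The other pro-survival genes did not pass the test. MCL1 was at 669, 681 and 659 CPM in controls and at 666, 671 and 655 CPM with CDK12. The groups overlapped, and the 95% interval of the log2 fold change ran from -0.09 to 0.07. BCL2 was at 14.5 ± 0.59 and 14.2 ± 0.63 CPM (interval -0.18 to 0.13), and BCL2L2, which encodes BCL-W, at 60.4 ± 1.75 and 58.9 ± 1.33 CPM (interval -0.14 to 0.06). BCL2A1, a pro-survival gene induced by NF-kappaB, was low, at 0.974 to 1.32 CPM in controls and 1.17 to 1.24 CPM with CDK12. Its interval was wide, from -0.35 to 0.56, so changes of either sign within it remain possible. BCL2L10 lay between 0.0439 and 0.240 CPM, around the counting limit.

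None of the pore-forming effectors passed. BAX was at 115, 116 and 126 CPM in controls and at 122, 116 and 119 CPM with CDK12, with a log2 fold change of -0.0018 and an interval of -0.09 to 0.09. BAK1 was at 33.2 ± 1.25 and 34.3 ± 1.62 CPM (interval -0.08 to 0.17). The libraries of both genes overlapped throughout. BOK, an effector not restrained by the usual pro-survival proteins, was at 22.0, 23.9 and 23.1 CPM in controls and at 19.4, 19.7 and 22.2 CPM with CDK12. Its highest CDK12 library lay just above its lowest control (log2 fold change -0.17, SE 0.07; edgeR adjusted p = 0.0557). Without CDK12 replicate 3 BOK passed, with an adjusted p of 0.0176.

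BH3-only genes moved apart, with BCL2L11, PMAIP1 and BMF higher and BID and BBC3 lower. BCL2L11 encodes BIM, which binds all pro-survival proteins. It was at 43.8, 42.7 and 43.4 CPM in controls and at 52.9, 52.8 and 52.0 CPM with CDK12. The groups lay well apart with little spread in either, a 1.21-fold rise (log2 fold change 0.28, SE 0.05; edgeR adjusted p = 0.000104). MIR4435-2HG, on the opposite strand, overlaps 11.9% of the merged exons of BCL2L11, and it fell, from 24.9 ± 2.30 to 20.8 ± 3.25 CPM, with overlapping libraries (edgeR adjusted p = 0.0187).

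PMAIP1 encodes NOXA, which mainly engages MCL1. Control replicates 1, 2 and 3 had 4.66, 3.79 and 4.10 CPM of it, and the CDK12 replicates 5.65, 5.77 and 5.67 CPM. All CDK12 libraries were above all controls, a 1.36-fold rise (log2 fold change 0.44, SE 0.12; edgeR adjusted p = 0.00437). BMF, a BH3-only gene linked to the cytoskeleton, was at 20.1, 17.4 and 18.2 CPM in controls and at 22.1, 19.3 and 23.0 CPM with CDK12. Here the groups overlapped, since CDK12 replicate 2 lay below control replicate 1 (log2 fold change 0.21, SE 0.08; edgeR adjusted p = 0.0328). BMF did not pass without control replicate 2 (adjusted p = 0.142), control replicate 3 (0.0916), CDK12 replicate 1 (0.0756) or CDK12 replicate 3 (0.145), nor with the DESeq2 Wald test (0.0771).

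BID links death receptors to mitochondria once caspase-8 has cut its product. It was at 39.4, 39.8 and 38.6 CPM in controls and at 34.9, 30.7 and 32.8 CPM with CDK12. The groups did not overlap, and the fall was 1.196-fold (log2 fold change -0.26, SE 0.06; edgeR adjusted p = 0.00117). BBC3 encodes PUMA, a p53 target that binds all pro-survival proteins. It was at 41.6, 38.9 and 43.5 CPM in controls and at 35.5, 33.3 and 38.8 CPM with CDK12. CDK12 replicate 3 came close to control replicate 2, without overlap (log2 fold change -0.21, SE 0.06; edgeR adjusted p = 0.00981). BBC3 did not pass without control replicate 3 (adjusted p = 0.0724) or CDK12 replicate 2 (0.0742).

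The remaining BH3-only genes were not called. BAD, whose product is inactivated by growth factor kinases, was at 47.8 ± 2.69 and 45.9 ± 1.09 CPM (log2 fold change -0.06, interval -0.17 to 0.05). BIK, which acts at the endoplasmic reticulum, was at 13.7 ± 1.01 and 12.4 ± 1.202 CPM (interval -0.32 to 0.03). HRK was scarce, between 0.384 and 0.783 CPM in all libraries, and its interval was likewise wide, from -0.45 to 0.81.

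Of the 3 BCL2-like genes with less settled roles, 1 rose, 1 fell and 1 was not called. BCL2L12 was at 21.8, 19.1 and 23.3 CPM in controls and at 17.9, 18.2 and 17.8 CPM with CDK12, without overlap. The fall was 1.19-fold (log2 fold change -0.25, SE 0.07; edgeR adjusted p = 0.00791), and it did not pass without control replicate 3 (adjusted p = 0.0900). IRF3, on the opposite strand, overlaps 25.3% of the merged exons of BCL2L12 and was at 73.7 ± 4.09 and 72.3 ± 3.52 CPM. BCL2L13, a mitochondrial outer membrane protein with a role in mitophagy, was at 148, 152 and 146 CPM in controls and at 158, 160 and 162 CPM with CDK12. All its CDK12 libraries were above its controls, but by 1.08-fold only (log2 fold change 0.11, SE 0.04; edgeR adjusted p = 0.0433). BCL2L13 did not pass without control replicate 1 (adjusted p = 0.124), 2 (0.0536) or 3 (0.148), without CDK12 replicate 2 (0.0832) or 3 (0.102), or with no filter (0.0701). BCL2L14 lay between 0.417 and 1.00 CPM in all libraries, with overlap.

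**Figure D4:**
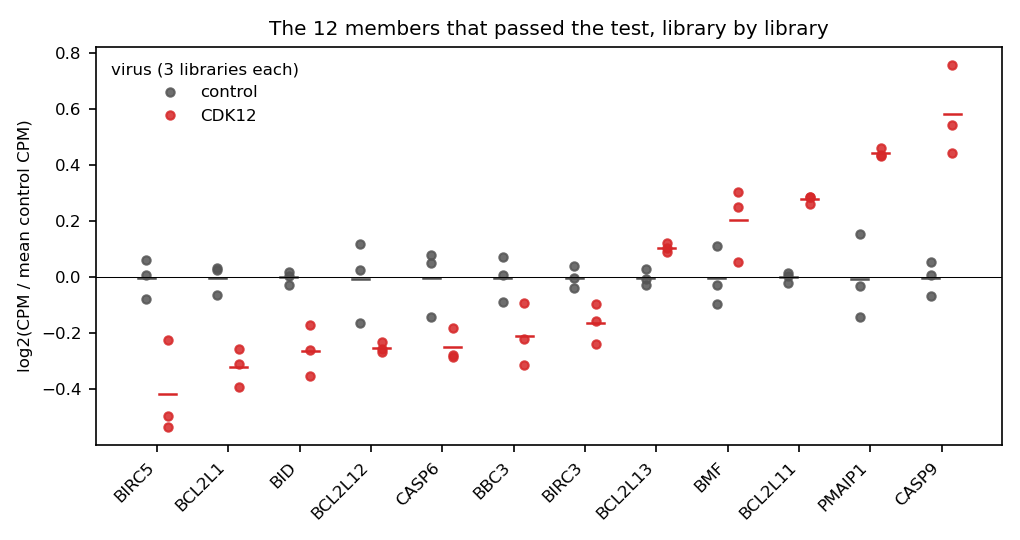
Each of the 12 members that passed the test, with 1 point per library as log2 of its CPM over the control mean (vertical axis); bars are group means, grey for control and red for CDK12. The groups are apart in 11 genes and overlap in BMF, and CASP9 has the largest rise and the widest CDK12 spread of the genes that rose.

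Among IAP genes, BIRC5 and BIRC3 fell. BIRC5 encodes survivin, a member of the chromosomal passenger complex that is made mainly in mitosis. It was at 18.5, 19.2 and 17.5 CPM in controls and at 15.8, 13.1 and 12.7 CPM with CDK12. The groups did not overlap, and CDK12 replicate 1 lay nearest to the controls. The fall was 1.32-fold, the largest among the members (log2 fold change -0.40, SE 0.08; edgeR adjusted p = 0.000322). Of 14 other genes of G2 and mitosis, 11 were lower and 0 higher, beside 18.9% of all genes tested lower and 16.2% higher. The median log2 fold change of these 14 was -0.27, beside 0.0035 over all genes tested. The 14 genes had a summed level of 638 to 688 CPM in controls and 564 to 587 CPM with CDK12. Their part in the result for BIRC5 was not tested.

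BIRC3 encodes cIAP2, a ubiquitin ligase of TNF receptor signalling and a target of NF-kappaB. It was at 38.3, 40.4 and 39.2 CPM in controls and at 33.3, 36.8 and 35.3 CPM with CDK12, without overlap. The fall was 1.12-fold (log2 fold change -0.16, SE 0.06; edgeR adjusted p = 0.0292). BIRC3 did not pass with upper-quartile factors (adjusted p = 0.0900), total counts (0.104) or the DESeq2 Wald test (0.0648). It also did not pass without control replicate 2 (adjusted p = 0.0894), control replicate 3 (0.0752), CDK12 replicate 1 (0.133) or CDK12 replicate 3 (0.0574). Of 15 NF-kappaB targets 13 were lower and 2 higher, beside 18.9% and 16.2% of all genes tested. The member BCL2A1, also induced by NF-kappaB, did not pass (log2 fold change 0.10, interval -0.35 to 0.56). The targets had a summed level of 997 to 1026 CPM in controls and 865 to 883 CPM with CDK12. Their part in the result for BIRC3 was not tested.

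Promoter sequence was searched for the letters of 3 motifs on both strands of the 250 bases before each start, in RefSeq's table for GRCh38.p14, which holds 55 promoters of 29 of the 36 members. BCL2L2, MCL1, BCL2L10, BIK, BIRC5, CASP1 and CASP10 have no entry in it and were not searched. An NF-kappaB motif (GGG and TTTCC parted by any 2 bases) matched in 1.73% of all 35116 promoters and in 1 of the 55 member promoters (1.82%), that of BIRC3. A core of the interferon-stimulated response element (GAAA and GAAA parted by any 2 bases) matched in 3.02% of all promoters and in 2 member promoters (3.64%), of BCL2A1 and BCL2L14. The cell cycle homology element, TTTGAA, matched in 13.3% of promoters and in 5 member promoters (9.09%), of BOK, CASP2 and CFLAR. These motifs do not overlap in the stretches shown. BIRC3 is printed because it fell beside the NF-kappaB targets, and BCL2A1 because it holds the interferon element and did not pass the test while all 20 interferon-stimulated genes fell. BCL2A1 was low, at 0.974 to 1.32 CPM in controls, and its interval was wide (-0.35 to 0.56). Capitals mark the match, which begins 199 bases before the start in BIRC3 (chr11:102317234-102317483, plus strand) and 133 bases before it in BCL2A1 (chr15:79971197-79971446, minus strand); a match of letters is a description and no evidence of binding.
BIRC3: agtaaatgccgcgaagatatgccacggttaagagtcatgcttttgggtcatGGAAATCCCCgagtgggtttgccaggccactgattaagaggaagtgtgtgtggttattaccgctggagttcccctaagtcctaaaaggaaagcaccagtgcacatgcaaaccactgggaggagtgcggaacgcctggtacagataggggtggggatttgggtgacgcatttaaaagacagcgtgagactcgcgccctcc
BCL2A1: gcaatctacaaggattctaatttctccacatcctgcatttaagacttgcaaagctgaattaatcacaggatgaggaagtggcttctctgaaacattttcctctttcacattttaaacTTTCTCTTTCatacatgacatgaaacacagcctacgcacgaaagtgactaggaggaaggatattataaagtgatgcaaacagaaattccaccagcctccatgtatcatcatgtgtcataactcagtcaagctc

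The other IAP genes and the antagonists did not pass. XIAP, the IAP that inhibits caspases directly, was at 76.7, 77.8 and 72.2 CPM in controls and at 75.1, 87.4 and 78.6 CPM with CDK12. The groups overlapped (log2 fold change 0.09, edgeR adjusted p = 0.191), although XIAP passed as higher without CDK12 replicate 1 (adjusted p = 0.0347) and with total counts (0.0494). BIRC2, which encodes cIAP1, was at 41.9 ± 3.06 and 43.1 ± 2.52 CPM (interval -0.08 to 0.16). BIRC6, a giant ubiquitin-conjugating IAP, was at 200.4 ± 16.4 and 207 ± 15.1 CPM (interval -0.06 to 0.15). DIABLO, which displaces IAPs from caspases, was at 60.8 ± 1.83 and 57.3 ± 1.97 CPM (interval -0.19 to 0.02). HTRA2, a mitochondrial protease with the same activity, was at 16.4 ± 0.36 and 17.4 ± 0.79 CPM (interval -0.06 to 0.23). DIABLO and HTRA2 share exon sequence with genes on the opposite strand, 39.1% of the merged exons with B3GNT4 for DIABLO and 26.4% with LOXL3 and 20.4% with AUP1 for HTRA2, so their counts are uncertain. Another gene on the same strand, which is not among the symbols counted, overlaps 48.6% of the merged exons of DIABLO. AUP1 fell, from 121 ± 0.89 to 107 ± 1.90 CPM, while B3GNT4 and LOXL3 were under 3 CPM in every library.

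CASP9, the initiator caspase of the apoptosome, showed the largest change of all members. It was at 9.93, 10.5 and 10.8 CPM in controls and at 17.6, 14.1 and 15.2 CPM with CDK12. Every CDK12 library was well above every control, and CDK12 replicate 1 was the highest. The rise was 1.51-fold (log2 fold change 0.59, SE 0.09; edgeR adjusted p = 5.92e-06), and it lay between 0.50 and 0.66 on the log2 scale in 14 alternatives. APAF1, the scaffold that caspase-9 binds, was at 24.7, 26.2 and 26.0 CPM in controls and at 22.7, 26.3 and 26.97 CPM with CDK12. It overlapped between groups, with a log2 fold change of -0.02 (interval -0.16 to 0.12). ANKS1B, on the opposite strand, overlaps 10% of the merged exons of APAF1. ANKS1B fell, from 10.7 ± 0.21 to 9.05 ± 0.35 CPM (edgeR adjusted p = 0.0332). Counts per gene do not part the full-length CASP9 transcript from the short splice form that opposes it.

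CASP6, an executioner caspase that cuts lamins, fell. It was at 28.4, 32.4 and 33.0 CPM in controls and at 27.6, 25.8 and 25.7 CPM with CDK12. The groups were close but did not overlap, control replicate 1 lying next to CDK12 replicate 1 (log2 fold change -0.25, SE 0.07; edgeR adjusted p = 0.00461). CASP8, the initiator at death receptors, was at 22.8 ± 1.46 and 24.4 ± 1.75 CPM (interval -0.04 to 0.25). CFLAR, which encodes its catalytically dead regulator c-FLIP, was at 123 ± 3.79 and 117 ± 4.11 CPM (interval -0.16 to 0.02). CASP2, which is activated by the PIDD1 platform, was at 35.7 ± 1.66 and 34.4 ± 0.62 CPM (interval -0.17 to 0.06). CASP10, a relative of CASP8, lay between 0.165 and 0.520 CPM.

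The inflammatory caspase genes CASP1 and CASP4, known to be inducible by interferon, did not pass. CASP1 was at 1.71, 1.39 and 1.66 CPM in controls and at 1.45, 1.28 and 1.00 CPM with CDK12. The groups overlapped (log2 fold change -0.35, SE 0.21; edgeR adjusted p = 0.196). CASP4 was at 23.5, 25.8 and 21.6 CPM in controls and at 23.2, 19.8 and 21.01 CPM with CDK12. It also overlapped (log2 fold change -0.14, SE 0.07; edgeR adjusted p = 0.140), and it passed without CDK12 replicate 1 (adjusted p = 0.0373). Control replicate 1, which had the highest level of interferon-stimulated genes, was the highest control for CASP1 and lay between the other controls for CASP4. The part of the interferon-stimulated genes in these values was not tested.

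Beyond the members, 73 other genes of apoptosis were taken from lists of death receptors and adaptors, further caspases and IAP-linked genes, mitochondrial death factors, execution substrates, and regulators or BAG partners of BCL2 proteins. Of 63 tested, 8 were higher and 12 lower, 31.7% against 35.1% of all genes. The balance of directions turned with the scaling, to 10 higher and 8 lower with upper-quartile factors and 11 higher and 6 lower with total counts. The call held in 14 alternatives for 10 of these 20. Among those 10, the death receptor gene TNFRSF10A fell from 19.3 ± 1.02 to 15.7 ± 1.08 CPM, and PIDD1, the platform of caspase-2, rose from 24.3 ± 1.35 to 29.7 ± 3.49 CPM. PEA15, which blocks the death receptor complex, fell from 242 ± 0.45 to 215 ± 5.45 CPM. LMNA, the lamin gene whose product caspase-6 cuts, fell from 665 ± 14.8 to 587 ± 13.9 CPM. BNIP2 (41.6 ± 2.32 to 49.98 ± 1.91 CPM), BNIP3 (107 ± 2.17 to 119 ± 2.11 CPM) and OMA1 (24.7 ± 0.81 to 28.8 ± 1.43 CPM), which encode a BCL2-interacting protein, a mitophagy receptor and an inner membrane protease, rose. The co-chaperone gene BAG2 rose from 11.4 ± 0.61 to 14.4 ± 0.77 CPM and BAG3 fell from 182 ± 3.43 to 160 ± 0.87 CPM. Adjusted p-values of these genes by edgeR ran from 0.000518 for BNIP2 to 0.00697 for OMA1.

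The other 10 calls each failed in at least 1 alternative, and 9 of them are described. TNFRSF10C, a decoy receptor for TRAIL, rose from 1.78 ± 0.07 to 2.53 ± 0.36 CPM, and BTRC, a ubiquitin ligase subunit, from 64.9 ± 0.36 to 71.4 ± 1.88 CPM. RIPK1, the kinase of TNF receptor complexes, fell from 75.4 ± 1.29 to 67.9 ± 2.33 CPM. DYNLL1, which encodes a dynein light chain, fell from 152 ± 2.78 to 137 ± 7.54 CPM. AIFM2 (34.0 ± 1.01 to 30.7 ± 1.71 CPM), VDAC3 (93.2 ± 2.46 to 85.04 ± 7.02 CPM), PANX1 (9.35 ± 0.77 to 7.67 ± 0.37 CPM), BAG1 (68.0 ± 2.74 to 61.2 ± 4.73 CPM) and BAG6 (265 ± 8.86 to 238.5 ± 9.47 CPM) also fell. They encode an oxidoreductase that guards against lipid peroxidation, a mitochondrial channel, a channel opened by caspases, and chaperone partners of the BAG family.

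XAF1, whose call also held in 14 alternatives, encodes a protein known to bind and antagonise XIAP and is itself induced by interferon. It was at 7.12, 3.31 and 3.17 CPM in controls and at 0.112, 0.206 and 0.0834 CPM with CDK12, which is 162, 69 and 78 counts against 3, 5 and 2. Control replicate 1 had more than the other controls, and all CDK12 libraries were near the counting limit. With counts pooled per group, the controls had 34.0 times the level of the CDK12 libraries (95% counting interval 18.3 to 71.7). Without control replicate 1 the pooled ratio was 24.3 (12.8 to 51.7). Both intervals leave out the spread between libraries. The edgeR fit gave a log2 fold change of -5.04 (95% interval -5.85 to -4.22, adjusted p = 1.04e-10). XAF1 is the gene meant in what follows. The level of XAF1 followed the interferon-stimulated genes across groups and was highest in the same control library. The part of the interferon genes in this result was not tested. PRAL, a gene on the opposite strand, covers 69.9% of the merged exons of XAF1 and is not analysed here.

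**Figure D5:**
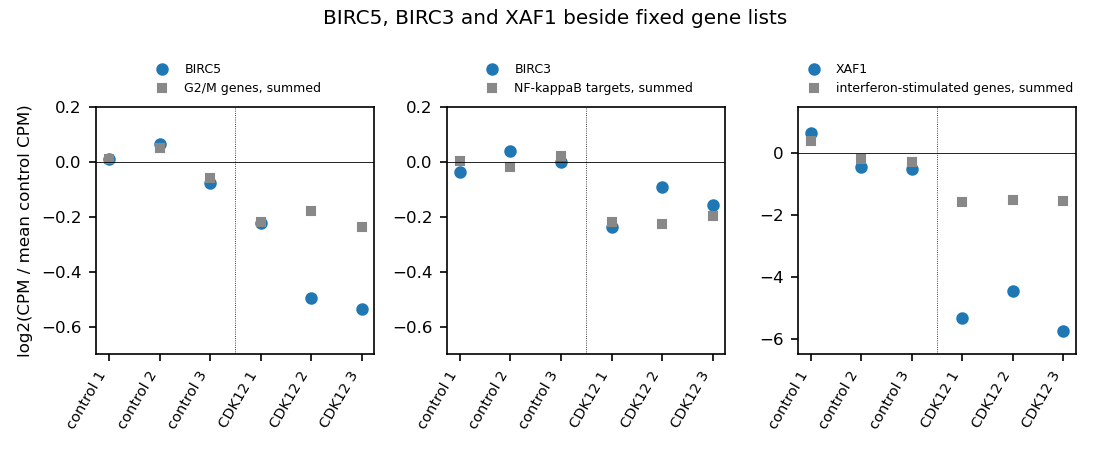
BIRC5, BIRC3 and XAF1 (circles) in each of the 6 libraries, as log2 of CPM over the control mean (vertical axis; the scale of the XAF1 panel is wider), beside the summed level of 14 G2/M genes, 15 NF-kappaB targets and 20 interferon-stimulated genes (squares). Each gene and its list are lower in all CDK12 libraries, and XAF1 and the interferon-stimulated genes are both highest in control replicate 1.

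Gene span was set beside the changes because CDK12 acts on elongating RNA polymerase II. Members tested spanned 3.97 to 262 kilobases in GENCODE 29. Across these 34 genes Spearman's rho between span and log2 fold change was 0.157, and across 13804 genes tested that had a span it was -0.0514. Genes measured in the same 6 libraries are not independent, and both values are descriptions.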

How the data were processed

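Polyadenylated RNA of 6 libraries was sequenced, 3 per group, and the authors deposited unnormalised counts for each gene symbol. CASAVA 1.8, STAR 2.6.0c, featureCounts from Subread 1.6.2 and hg19 are named per the submitters' processing notes, while strand setting, annotation and handling of multiply mapped reads were not given in the sources used here. Genes were kept with filterByExpr of edgeR 4.0.16 (minimum count 10, minimum total 15), scaled by TMM and compared by quasi-likelihood F tests in a model of group alone. Benjamini-Hochberg adjustment of the two-sided p-values covered every gene tested (threshold 0.05). SE is the log2 fold change over the square root of F, and 95% intervals are unadjusted. Replicate pairs differed by more than sampling noise (chi-square per degree of freedom 2.74 to 4.55). The test was tested on simulated data. By rule every member is accounted for, with values in each library where it passed, and of each other apoptosis list up to 4 called genes in the commoner direction and 2 in the other are named. COL1A1 and the overlapping genes were chosen after their values were seen. Some genes of these lists are not reported here. Members and lists were chosen with earlier results of these data known. Alternatives were other scalings and filters, DESeq2 1.42.0, voom of limma 3.58.1, a block for the replicate number, and the omission of each library in turn.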

Additional observations from a re-analysis of the deposited data

How the results depend on the processing

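Of the 12 members that passed, CASP9, PMAIP1, BCL2L11, BIRC5, BCL2L1, BID and CASP6 kept their direction and their call in 14 alternatives, while BMF, BCL2L13, BIRC3, BBC3 and BCL2L12 lost the call in at least 1. No member that was called in any setting changed direction. Leaving out 1 library in turn gave 3 to 5 members higher and 4 to 7 lower, and 7 to 12 of the other apoptosis genes lower; fewer samples enter these fits. With total counts 6 of the other apoptosis genes were lower and 11 higher, where TMM gave 12 and 8; leaving out the TMM factors moved the median log2 fold change of all genes from 0.0035 to 0.05, so that small falls near the threshold no longer passed. With the replicate number as a block, 5 members were higher and 7 lower, as without it, and over all genes 2330 were higher and 2776 lower against 2371 and 2772. Deviations from the group means of same-numbered libraries correlated at -0.116, 0.127 and 0.0737, and not every library correlated best with its own number. These values show no clear pairing by number. They cannot exclude one, since deviations within a group of 3 libraries are not independent. Among the other genes described, the block ended the calls of VDAC3 and BAG1. Depth limits BCL2A1, HRK, BCL2L14 and CASP1, whose intervals are wide, and BCL2L10 and CASP10, which were not tested.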
